A study of Mus musculus with 9 samples.

Results

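The nuclear genes of respiratory complexes II to V were followed in fresh mouse oocytes and in oocytes frozen by 2 methods. This set was chosen with earlier results of these data known. Its members were taken by gene symbol: the Sdh genes a to d, the Uqcr genes, Cyc1, the Cox genes numbered 4 to 8, and the Atp5 genes. The pattern took 56 of the 26358 genes in the deposited table, of which 4 belong to complex II, 11 to complex III, 18 to complex IV and 23 to complex V. There were 45 genes among them, and 11 entries that are pseudogenes by annotation or name. Each of the 3 groups held 3 libraries made from oocyte RNA selected on oligo(dT), so a transcript with a short poly(A) tail can be recovered less well. Fresh oocytes were not frozen. The cryotop was the carrier in cryopreservation-1, in a solution of 15% EG, 15% DMSO and 0.5 M sucrose. Cryopreservation-2 used a straw, with 17.5% EG and 1 M trehalose with PVA/Fe3O4/GO nanoparticles. Both cryopreserved groups thus differ in carrier as well as in solution, which cannot be told apart. The labels give no strain, age or oocyte stage, and do not say whether replicates came from separate animals or pools, so the spread that p-values rest on may be technical.

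The respiratory chain of the inner mitochondrial membrane passes electrons from complexes I and II through ubiquinone to complex III, and on by cytochrome c to complex IV, where oxygen is reduced. Complexes III and IV pump protons, and complex V, the ATP synthase, uses the return of those protons to make ATP. Complex II is built wholly from nuclear genes, whereas complexes III, IV and V also hold subunits from the mitochondrial genome. Oocytes depend on mitochondria for ATP and carry many of them. Several nuclear subunits exist in more than 1 form, with forms known from heart and muscle (Cox6a2), lung (Cox4i2) and testis (Cox6b2 and Cox8c).

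Promoters of such genes are known for binding sites of NRF1 and of the ETS-type factor GABP, and 4 of them are shown because the results turn on their genes: in complex II Sdhd was called higher in cryopreservation-2 and the abundant Sdha was not, and Cox6b1 and Cox6b2 are alternative forms of 1 subunit of complex IV. Each is the 250 bases before the start site in RefSeq on GRCm38.p6, written 5′ to 3′, with capitals marking matches on either strand to an NRF1-type motif (GCGC, then any base, then TGCGC) or an ETS-type motif (CCGGAAG).
Sdha, chr13:74350241-74350490, minus strand: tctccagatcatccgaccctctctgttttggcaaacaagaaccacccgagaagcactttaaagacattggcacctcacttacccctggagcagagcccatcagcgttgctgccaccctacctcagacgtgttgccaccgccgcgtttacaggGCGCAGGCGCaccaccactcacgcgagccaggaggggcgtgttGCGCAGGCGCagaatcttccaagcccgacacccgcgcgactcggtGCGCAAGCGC
Sdhd, chr9:50603850-50604099, minus strand: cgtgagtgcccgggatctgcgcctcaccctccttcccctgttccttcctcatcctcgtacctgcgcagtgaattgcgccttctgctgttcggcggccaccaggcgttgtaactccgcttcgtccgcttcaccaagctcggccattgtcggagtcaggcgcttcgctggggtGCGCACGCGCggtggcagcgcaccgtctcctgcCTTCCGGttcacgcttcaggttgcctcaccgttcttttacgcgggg
Cox6b1, chr7:30626115-30626364, minus strand: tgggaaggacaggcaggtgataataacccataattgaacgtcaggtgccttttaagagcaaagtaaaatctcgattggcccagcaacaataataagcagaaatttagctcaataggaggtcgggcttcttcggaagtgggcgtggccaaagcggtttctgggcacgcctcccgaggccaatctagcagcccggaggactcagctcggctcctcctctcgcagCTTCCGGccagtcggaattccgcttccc
Cox6b2, chr7:4753095-4753344, minus strand: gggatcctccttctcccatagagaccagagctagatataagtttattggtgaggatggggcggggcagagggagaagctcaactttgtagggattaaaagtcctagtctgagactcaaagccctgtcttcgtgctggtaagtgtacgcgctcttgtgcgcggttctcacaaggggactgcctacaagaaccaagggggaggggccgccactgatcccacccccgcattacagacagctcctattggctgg
The Sdha stretch held 3 NRF1-type matches and no ETS-type match, and that of Sdhd held 1 of each. Cox6b1 held 1 ETS-type match, and Cox6b2 held neither. Windows that also take in the 50 bases after the start site were found for 33 of the 45 genes. The NRF1-type motif stood in 10 of them (30.3%), against 4.78% of 27025 RefSeq promoter windows of 300 bases, and its palindromic form, which is contained in it, in 4 (12.1% against 0.977%). CCGGAAG, which no other motif searched contains, stood in 12 (36.4% against 9.12%). The Sp1-type GGGCGG was found in 39.4% against 35.9%, and the YY1-type CAAGATGG in 6.06% against 2.19%. Median GC content was 56.67% in these windows and 52.67% in all, and the part of base composition in these shares was not tested. Members took the window nearest the gene's start in the deposited table, which for Atp5d was 3643 bases away. The 27025 windows were the first listed of each gene, so the 2 sets were not picked alike. Of the 14 windows from genes that rose in cryopreservation-2 against fresh, 21.4% held the NRF1-type motif and 35.7% CCGGAAG, and of the 19 others 36.8% held each. A match describes these letters and is not a binding site.

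Total counts were 49337232 to 51369012 in the cryopreservation-2 libraries and 64276885 to 80877288 in the others, so depth ran with the group, and its part in the results was not tested. The 56 members took 0.166% to 0.243% of all counts in a library. In each group 1 library had the most genes at 0 counts: fresh replicate 3 (9108 genes), cryopreservation-1 replicate 3 (8421) and cryopreservation-2 replicate 1 (8667). The 14 oocyte markers were all measured and summed to 14935 to 22659 CPM (counts scaled to the library's total) in every library. Markers of cumulus and granulosa cells, of which 11 of 16 were measured, summed to 938 to 1241 CPM in fresh, 1014 to 1244 in cryopreservation-1 and 1116 to 1751 in cryopreservation-2, most of it Serpine2. Across the 8 of these that were tested, the median log2 fold change in cryopreservation-2 against fresh was -0.42, with 3 positive and 0 called. Ptx3 and Nr5a1 had at most 3 counts in every fresh library. Immune and blood markers, with 10 of 11 measured, summed to 3.15 to 14.8 CPM over all libraries, and stromal and endothelial markers, with 7 of 12, to 98.2 to 201 CPM. Padi6, Myh11 and Krt8 were the markers that rose in cryopreservation-2 against fresh. The part of other cells in the results on members was not tested. In bulk RNA, fewer cells of a type and less RNA per cell cannot be told apart.

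Levels are given in FPKM or CPM. FPKM, the deposited count scaled to gene length and to library depth, is used to compare genes. CPM, scaled by the TMM method to library size, is used for 1 gene across libraries and is the scale beside each log2 fold change, except that marker sums and the limits set by 0 counts are on total counts without TMM. FPKM carries no TMM scaling, and neither do the sums of FPKM over a complex. The TMM factors, by which CPM is divided, ran with the group. They were 0.868 to 1.01 in fresh, 0.954 to 0.969 in cryopreservation-1 and 1.03 to 1.17 in cryopreservation-2. Values of 3 libraries are given in the order of replicates 1, 2 and 3. A gene is said to be called, or to have risen, where edgeR's quasi-likelihood test gave a Benjamini-Hochberg adjusted p under 0.05 over all 17545 genes tested, and adjusted p-values in the text are from that test. Of the 56 members, 48 had enough counts to be tested: 43 genes and 5 pseudogenes. Cox4i2 and Cox8c were not tested, nor were the pseudogenes Uqcrh-ps1, Uqcrh-ps2, Cox7c-ps1, Atp5k-ps2, Atp5l-ps1 and Atp5l-ps2, all at low counts.

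Subunits of 1 complex stood at very different transcript levels. In complex II, Sdha had the highest mean over the 9 libraries, 56.0 FPKM, and Sdhb the lowest, 1.72 FPKM, a ratio of 32.5. The extremes were 590 times apart in complex III (Uqcrc2 at 122.9 and Uqcrc1 at 0.208 FPKM) and 202 times in complex V (Atp5b at 97.6 and Atp5md at 0.484 FPKM). In complex IV the highest was Cox8a at 162 FPKM, and Cox4i2 stood near 0. The 10 most abundant members were Cox8a, Uqcrc2, Cox6a1, Atp5b, Sdha, Cox5a, Cox6b2, Sdhd, Atp5a1 and Atp5c1, with means of 27.8 to 162 FPKM. The other 33 tested genes had means of 0.208 to 21.2 FPKM. Some low values are understated, since the gene model behind the FPKM is longer than the longest coding transcript, by 11.6 times for Atp5l, 4.75 for Cox6c, 4.13 for Atp5e and 4.02 for Atp5j. A gene's own comparison between libraries does not depend on that length.

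**Figure D1:**
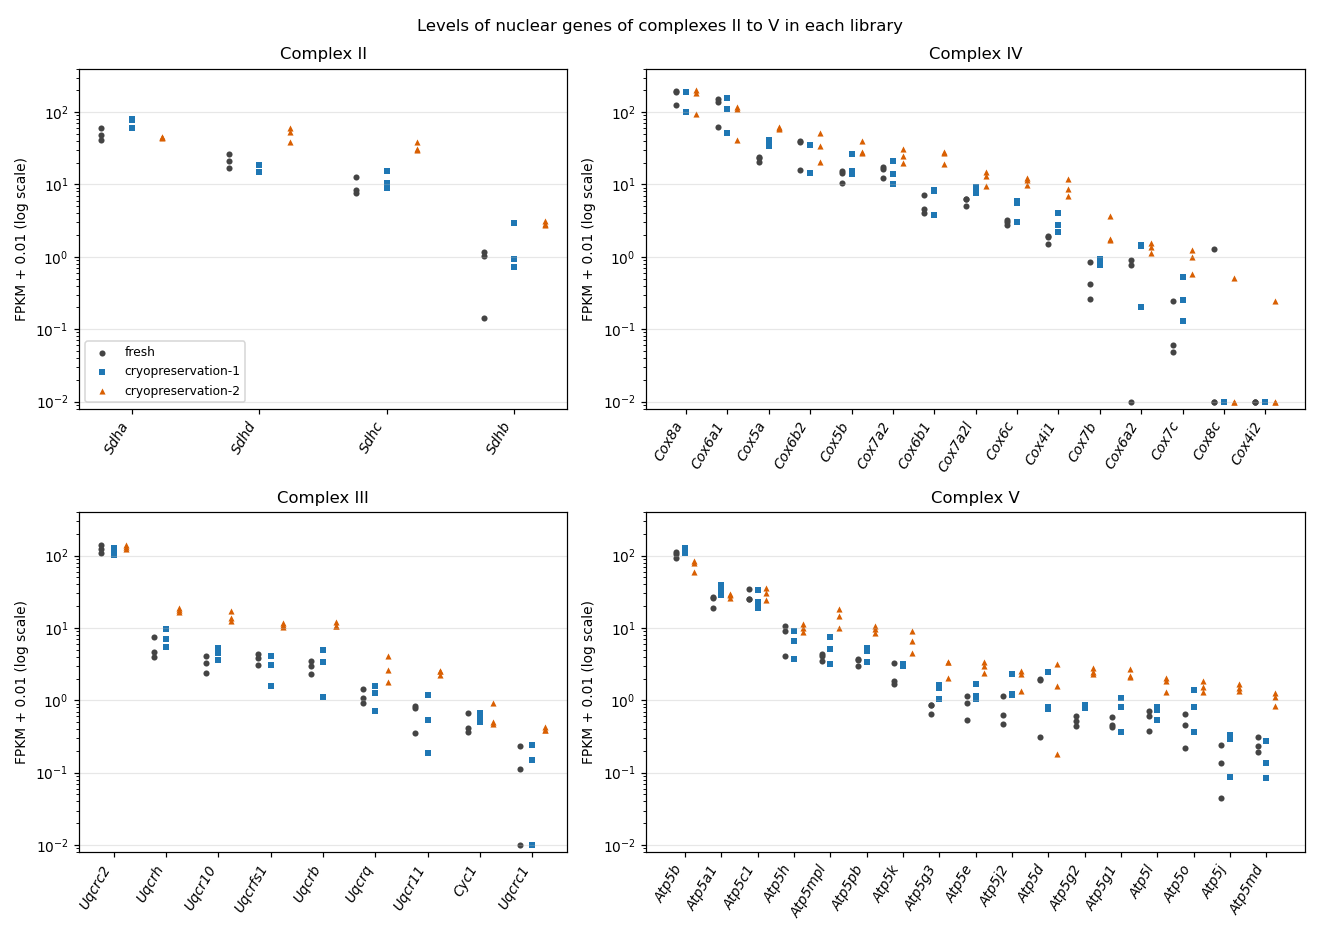
Level of each of the 45 genes in the 9 libraries, in FPKM + 0.01 on a log scale, by complex, with 1 point per library (circles fresh, squares cryopreservation-1, triangles cryopreservation-2). Atp5j and Uqcr10 are examples of genes with their triangles above the other points, whereas Cyc1, Atp5d, Uqcrc2, Cox8a and Atp5c1 have overlapping groups and Atp5b has its triangles lowest.

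Cryopreservation-1 against fresh asks what freezing on a cryotop changed. No member was called in either direction, and none of the 17545 genes was (0%). At an unadjusted p under 0.05 there were 5 members (Sdha, Cox5a, Cox6c, Atp5a1 and Atp5j2), against 4.72% of all genes, and DESeq2 also called no member. The log2 fold change was positive in 34 of the 48 tested members, with a median of 0.33, against 52.1% of all genes and a median of 0.02. Without overlap between the groups, 7 members were higher and none lower, where 6.37% of all genes were higher and 3.72% lower. The size of these differences, with their SEs, is given gene by gene below.

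Cryopreservation-2 against fresh asks the same of freezing in a straw with nanoparticles. Here 18 of the 48 tested members were called higher and none lower, from every complex, among 558 of all genes called higher (3.18%) and 386 lower (2.2%), or 5.38% in either direction. The members called were 2 of 4 in complex II, 3 of 9 in complex III, 5 of 15 in complex IV and 8 of 20 in complex V. The median log2 fold change was 1.48 over the tested members (1.36, 1.59, 1.26 and 1.54 in complexes II to V) and -0.06 over all genes. In 42 of 48 members the change was positive, against 47.6% of all genes, and 31 had an unadjusted p under 0.05, against 21.8%. The groups did not overlap in 38 members, with 36 higher and 2 lower (Sdha and Atp5b), where 15.1% of all genes were higher and 12.4% lower without overlap. The count of called members fell when a library was left out, to 5 when fresh replicate 1 or 3 was dropped, 10 for fresh replicate 2, 11 for cryopreservation-1 replicate 1, and 6 for cryopreservation-2 replicate 2 or 3. It was 6 with the library of most zeros left out of every group. Calls over all genes in these fits are not given here, so a fall particular to members cannot be told from a general one. Cox4i1, Cox5a and Cox6c stayed called in each of these fits. Over all alternative settings and left-out libraries, the call was lost most often for Atp5e (15 of 21 fits), Cox7a2l (14 of 22), Uqcrfs1 (13 of 22), Atp5l (12 of 21), Sdhd (11 of 22) and Atp5j (10 of 21), and the other 9 lost it in 3 to 8.

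**Figure D2:**
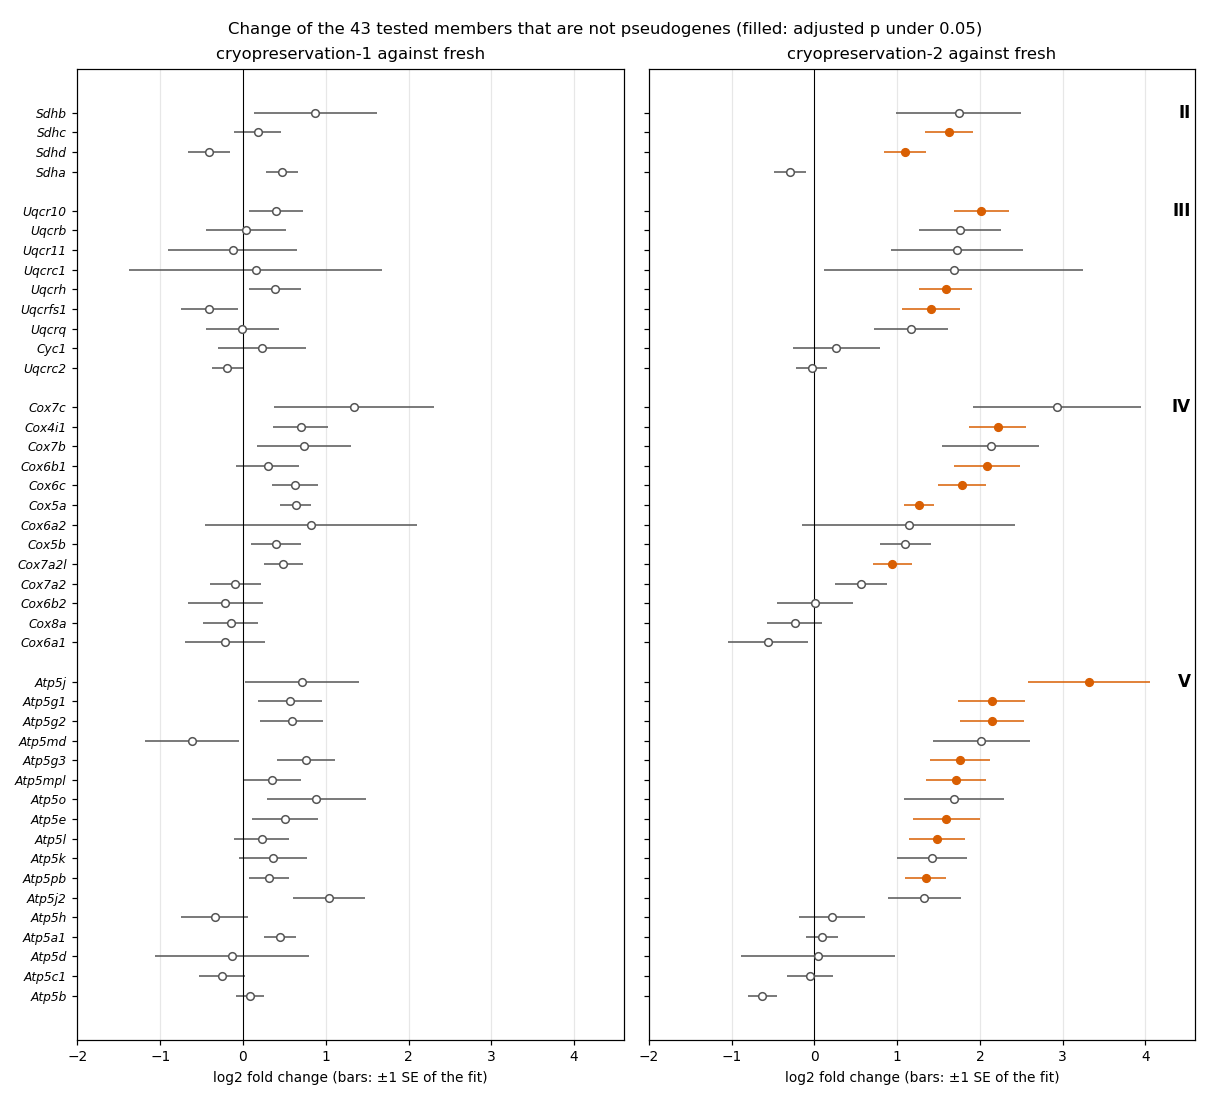
Log2 fold change of the 43 tested genes in cryopreservation-1 (left) and cryopreservation-2 (right) against fresh, with bars of 1 SE of the fit, ordered by complex and by the change on the right, and filled where the adjusted p is under 0.05. No point is filled on the left; 18 are filled on the right, all above 0, from Cox7a2l at 0.94 to Atp5j at 3.32.

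Cryopreservation-2 against cryopreservation-1 compares the methods with each other, and shares its cryopreservation-2 libraries with the comparison above. It called 7 members higher and none lower: Sdhc, Sdhd, Uqcr10, Uqcrfs1, Cox4i1, Cox6b1 and Atp5md. Of all genes, 1.5% were called higher and 1.25% lower, or 2.75% in either direction. The median was 1.07 over 48 members and -0.07 over all genes, 43 members were positive against 46.8% of all genes, and 27 had an unadjusted p under 0.05 against 18.9%. Without overlap, 30 members were higher and 3 lower (Sdha, Atp5a1 and Atp5b), where 13.8% of all genes were higher and 15.2% lower. No member was called when any cryopreservation-1 library, cryopreservation-2 replicate 2 or 3, or the library of most zeros in every group was left out. The count was 4 without fresh replicate 1 and 3 without cryopreservation-2 replicate 1. Here too, calls over all genes in the same fits are not given. Over all alternatives the call between the methods was lost in 14 of 21 fits for Cox4i1 and for Atp5md, 10 of 22 for Uqcr10, 9 of 22 for Cox6b1, 8 of 22 for Uqcrfs1, and 6 of 22 for Sdhc and for Sdhd.

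Succinate dehydrogenase, complex II, oxidises succinate in its flavoprotein Sdha, passes the electrons along the iron-sulfur clusters of Sdhb, and reduces ubiquinone between its membrane anchors Sdhc and Sdhd. Both anchor genes rose in cryopreservation-2, and Sdha and Sdhb did not pass the test. Sdhc (chr1:171127165-171150603) stood at 30.995, 53.3 and 29.6 CPM in fresh, 39.1, 56.6 and 33.01 in cryopreservation-1 and 117, 106 and 129.7 in cryopreservation-2. The cryopreservation-2 libraries lay above all 6 others, and their log2 fold change was 1.63 (SE 0.29, adjusted p = 0.0149) against fresh and 1.45 (SE 0.29, adjusted p = 0.0307) against cryopreservation-1. Sdhd (chr9:50596357-50603812), whose promoter is shown above, had 28.9, 42.1 and 24.8 CPM in fresh, 26.1, 25.99 and 20.2 in cryopreservation-1 and 55.4, 70.4 and 78.4 in cryopreservation-2. It too was higher in every cryopreservation-2 library, by 1.09 (SE 0.26, adjusted p = 0.0377) against fresh and 1.497 (SE 0.26, adjusted p = 0.0209) against cryopreservation-1, while its change in cryopreservation-1 was -0.41 (SE 0.25, adjusted p = 1).

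Sdha (chr13:74322254-74350280), with 3 NRF1-type matches in its promoter, had 224, 220.2 and 296 CPM in fresh, 369, 290.1 and 367 in cryopreservation-1 and 217, 201 and 187 in cryopreservation-2. The highest values were those of cryopreservation-1, which overlapped fresh, and the lowest those of cryopreservation-2, which lay below both groups. None of its changes passed the test: 0.47 (SE 0.19, adjusted p = 1) in cryopreservation-1 against fresh, -0.29 (SE 0.19, adjusted p = 0.424) in cryopreservation-2 against fresh and -0.76 (SE 0.19, adjusted p = 0.0634) between the methods, where DESeq2 called it lower. Sdhb was scarce, at 0.335, 2.89 and 3.103 CPM in fresh, 2.38, 7.43 and 1.79 in cryopreservation-1 and 7.17, 7.46 and 6.53 in cryopreservation-2. Its cryopreservation-2 values were all above fresh but overlapped 1 high library of cryopreservation-1, and its change of 1.74 (SE 0.75, adjusted p = 0.211) against fresh was not called. Sdha gave the most to the summed FPKM of complex II in fresh and cryopreservation-1, and Sdhd in cryopreservation-2. Without TMM scaling, this sum was 82.3 ± 4.41 in fresh, 103 ± 5.02 in the cryotop group and 132 ± 13.8 in the straw group (SD, n = 3).

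Complex III transfers electrons from ubiquinol to cytochrome c through the Rieske iron-sulfur protein Uqcrfs1 and cytochrome c1 (Cyc1), beside the core proteins Uqcrc1 and Uqcrc2 and a set of small subunits. The Rieske gene and 2 small subunits rose in cryopreservation-2. Uqcrfs1 had 5.87, 5.44 and 6.91 CPM in fresh, 4.81, 6.49 and 2.44 in cryopreservation-1 and 17.04, 14.9 and 16.6 in cryopreservation-2. Its cryopreservation-2 libraries lay above all others, with 1.41 (SE 0.35, adjusted p = 0.0451) against fresh and 1.82 (SE 0.36, adjusted p = 0.0295) against cryopreservation-1. The small subunit Uqcr10 had 2.72, 1.78 and 2.27 CPM in fresh, 3.59, 2.399 and 2.95 in cryopreservation-1 and 8.298, 10.9 and 8.25 in cryopreservation-2. It was higher in every cryopreservation-2 library, with 2.02 (SE 0.34, adjusted p = 0.012) against fresh and 1.62 (SE 0.33, adjusted p = 0.0336) against cryopreservation-1. Uqcrh, the hinge protein that helps cytochrome c1 bind cytochrome c, had 5.53, 7.38 and 10.96 CPM in fresh, 9.95, 13.8 and 7.53 in cryopreservation-1 and 24.1, 23.5 and 24.2 in cryopreservation-2. It rose against fresh, by 1.59 (SE 0.32, adjusted p = 0.0238), and its change of 1.198 (SE 0.32, adjusted p = 0.073) against cryopreservation-1 was not called although the groups did not overlap.

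Uqcrc2, which outnumbered every other transcript of complex III, had 351, 453 and 323 CPM in fresh, 371, 303 and 316 in cryopreservation-1 and 390.0, 342 and 369 in cryopreservation-2. The 3 groups overlapped, and the log2 fold change was -0.03 (SE 0.19, adjusted p = 0.949) in cryopreservation-2 against fresh. The other subunits were not called. Uqcrb, Uqcrq, Uqcr11 and Uqcrc1 were higher in every cryopreservation-2 library than in every fresh one, with log2 fold changes of 1.76, 1.17, 1.72 and 1.68 and adjusted p-values of 0.067 to 0.604. Uqcrc1, the other core protein, was listed at 0 in fresh replicate 3 and cryopreservation-1 replicate 3 and never passed 2.03 CPM. Cyc1 had overlapping groups and a log2 fold change of 0.26. Summed FPKM of complex III, without TMM scaling, was 140.4 ± 14.1 in fresh, 134 ± 13.2 in the cryotop group and 193 ± 6.10 in the straw group (SD, n = 3).

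Cytochrome c oxidase, complex IV, carries its catalytic centres in subunits made from the mitochondrial genome, and the nuclear Cox genes encode the supporting subunits around them. Of these, Cox4i1, Cox5a, Cox6b1, Cox6c and Cox7a2l rose in cryopreservation-2 against fresh. Cox4i1 (chr8:120668222-120674207), the common form of the subunit that binds ATP as a regulator, had 2.63, 3.83 and 3.46 CPM in fresh, 7.26, 4.93 and 3.89 in cryopreservation-1 and 12.3, 19.8 and 13.9 in cryopreservation-2. Even the lowest cryopreservation-2 library was above all others, and the change was 2.21 (SE 0.34, adjusted p = 0.0095) against fresh and 1.52 (SE 0.34, adjusted p = 0.0441) against cryopreservation-1. The cryopreservation-1 libraries were all above fresh too, by 0.70 (SE 0.33, adjusted p = 1), which was not called. Cox5a (chr9:57521274-57532426), the most abundant member that rose, had 48.6, 64.3 and 57.6 CPM in fresh, 82.5, 98.9 and 83.6 in cryopreservation-1 and 140.5, 134 and 134 in cryopreservation-2. Its 3 groups did not overlap in either step, with 0.64 (SE 0.18, adjusted p = 1) in cryopreservation-1 and 1.26 (SE 0.18, adjusted p = 0.00842) in cryopreservation-2 against fresh, the first not called.

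Cox6c had 12.05, 14.6 and 11.6 CPM in fresh, 22.4, 24.5 and 11.998 in cryopreservation-1 and 40.8, 47.6 and 42.97 in cryopreservation-2. It rose by 1.78 (SE 0.29, adjusted p = 0.0109) against fresh, and stood 1.16 (SE 0.28, adjusted p = 0.0582) above cryopreservation-1, which was not called. Cox7a2l, which also helps join complexes III and IV into supercomplexes, had 10.6, 9.54 and 10.9 CPM in fresh, 12.9, 15.3 and 15.4 in cryopreservation-1 and 16.02, 23.6 and 20.1 in cryopreservation-2. Its rise of 0.94 (SE 0.24, adjusted p = 0.0477) was the smallest of the 18. Cox6b1 is described with its other form below. Among the members not called, Cox7c and Cox7b were higher in every cryopreservation-2 library than in every fresh one, with log2 fold changes of 2.93 (SE 1.01, adjusted p = 0.123) and 2.13 (SE 0.59, adjusted p = 0.064) at 5.06 CPM or less. Cox5b, a more abundant subunit, had 18.5, 29.5 and 28.6 CPM in fresh, 28.1, 48.1 and 24.98 in cryopreservation-1 and 50.6, 66.9 and 46.7 in cryopreservation-2, and its change of 1.099 (SE 0.31, adjusted p = 0.0663) against fresh was not called.

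The most abundant complex IV transcripts did not pass the test, and 1 library of each group weighed on them. Cox8a had 134, 148 and 91.98 CPM in fresh, 133, 137 and 68.5 in cryopreservation-1 and 67.03, 132 and 119 in cryopreservation-2. Cox6a1 had 122, 123 and 52.3 CPM in fresh, 127, 88.4 and 40.8 in cryopreservation-1 and 32.9, 82.5 and 85.7 in cryopreservation-2. In both genes the lowest value of each group belonged to the library with the most genes at 0, and the groups overlapped. The changes in cryopreservation-2 against fresh were -0.24 (SE 0.33, adjusted p = 0.756) for Cox8a and -0.56 (SE 0.48, adjusted p = 0.563) for Cox6a1. Summed FPKM of complex IV, without TMM scaling, was 387 ± 99.6 in fresh, 390.1 ± 127 in the cryotop group and 463 ± 132 in the straw group (SD, n = 3). The spread within each group is larger than any difference between the groups.

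ATP synthase, complex V, makes ATP on the alpha and beta subunits of its soluble head, turned through the central stalk (gamma, delta and epsilon) by a ring of c subunits in the membrane, and is held by a peripheral stalk. The genes of the head and of its gamma shaft did not pass the test in cryopreservation-2. Atp5b, the catalytic beta subunit (chr10:128083273-128090391), had 537, 507 and 526 CPM in fresh, 615, 538 and 514 in cryopreservation-1 and 292, 380.4 and 344 in cryopreservation-2. Its cryopreservation-2 libraries lay below all 6 others, with -0.63 (SE 0.17, adjusted p = 0.0618) against fresh and -0.71 (SE 0.17, adjusted p = 0.055) against cryopreservation-1, both just outside the threshold, and DESeq2 called it lower in both. Atp5a1, the alpha subunit, had 91.5, 75.8 and 100.5 CPM in fresh, 140.1, 103 and 122 in cryopreservation-1 and 92.7, 98.7 and 94.1 in cryopreservation-2. It was highest in cryopreservation-1, by 0.45 (SE 0.19, adjusted p = 1) against fresh with no overlap but no call, and cryopreservation-2 lay between, at 0.09 (SE 0.19, adjusted p = 0.844) against fresh.

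Atp5c1, the gamma shaft, had 53.03, 84.5 and 57.3 CPM in fresh, 50.1, 72.6 and 40.3 in cryopreservation-1 and 67.6, 50.4 and 69.9 in cryopreservation-2. The groups overlapped and the change was -0.05 (SE 0.28, adjusted p = 0.945) in cryopreservation-2 against fresh. Of the remaining central-stalk genes, Atp5d (delta) ranged from 0.383 to 6.48 CPM within cryopreservation-2 alone and stood at a log2 fold change of 0.05 against fresh (adjusted p = 0.988). The epsilon gene Atp5e had 2.26, 2.06 and 1.11 CPM in fresh, 2.31, 3.42 and 2.02 in cryopreservation-1 and 4.77, 5.54 and 6.101 in cryopreservation-2 and rose by 1.595 (SE 0.41, adjusted p = 0.0496) against fresh.

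The c ring is encoded by Atp5g1, Atp5g2 and Atp5g3, which differ in their import sequence and give the same mature subunit. All 3 rose in cryopreservation-2. Atp5g1 had 3.24, 2.78 and 2.44 CPM in fresh, 4.47, 6.05 and 1.9997 in cryopreservation-1 and 12.2, 14.4 and 10.8 in cryopreservation-2, and its change was 2.15 (SE 0.40, adjusted p = 0.019). Atp5g2 had 0.980, 1.28 and 0.860 CPM in fresh, 1.66, 1.57 and 1.47 in cryopreservation-1 and 4.503, 4.51 and 4.82 in cryopreservation-2, with 2.15 (SE 0.39, adjusted p = 0.0169). Atp5g3 had 2.08, 2.39 and 1.66 CPM in fresh, 3.77, 4.05 and 2.58 in cryopreservation-1 and 5.17, 7.95 and 7.68 in cryopreservation-2, with 1.76 (SE 0.36, adjusted p = 0.0238). In each of the 3 genes every cryopreservation-2 library was above every fresh and every cryopreservation-1 library, and none was called against cryopreservation-1.

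In the peripheral stalk, Atp5pb, the b subunit, had 17.4, 18.7 and 14.4 CPM in fresh, 22.6, 24.9 and 15.4 in cryopreservation-1 and 45.7, 37.5 and 45.1 in cryopreservation-2 and rose by 1.34 (SE 0.25, adjusted p = 0.0169). Atp5j, the coupling factor of the stalk (chr16:84827866-84835625), had 0.844, 0.547 and 0.141 CPM in fresh, 1.05, 0.297 and 1.18 in cryopreservation-1 and 6.11, 4.49 and 4.78 in cryopreservation-2. Its rise of 3.32 (SE 0.73, adjusted p = 0.0317) was the largest of the 48 members, from 0.844 CPM or less in fresh, and no cryopreservation-2 library overlapped another group. Atp5h, the d subunit, had overlapping groups and differed by 0.21 (SE 0.40, adjusted p = 0.827). Atp5o, the protein that ties the stalk to the head, was higher in every cryopreservation-2 library than in every fresh one, by 1.69 (SE 0.61, adjusted p = 0.134), and was not called.

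Of the small membrane subunits of ATP synthase, Atp5l and Atp5mpl rose against fresh, and Atp5md, Atp5j2 and Atp5k did not pass that test. Atp5l, subunit g, had 5.04, 5.02 and 2.79 CPM in fresh, 5.86, 5.39 and 3.79 in cryopreservation-1 and 9.505, 12.9 and 13.6 in cryopreservation-2 and rose by 1.48 (SE 0.34, adjusted p = 0.0347). Atp5mpl, a short proteolipid, had 5.91, 6.34 and 4.96 CPM in fresh, 7.18, 10.4 and 4.29 in cryopreservation-1 and 14.2, 23.8 and 18.4 in cryopreservation-2 and rose by 1.71 (SE 0.36, adjusted p = 0.0261). In both genes the cryopreservation-2 libraries lay above all others. Atp5md had 0.695, 0.676 and 0.987 CPM in fresh, 0.868, 0.426 and 0.242 in cryopreservation-1 and 2.64, 3.76 and 3.17 in cryopreservation-2. It was the member called against cryopreservation-1, by 2.63 (SE 0.60, adjusted p = 0.0472), but not against fresh, where the change was 2.02 (SE 0.58, adjusted p = 0.075), and the difference between these results was not tested. Atp5j2, subunit f, had 2.35, 1.97 and 4.41 CPM in fresh, 4.51, 8.87 and 4.53 in cryopreservation-1 and 5.12, 8.97 and 7.85 in cryopreservation-2. It was higher in both cryopreserved groups than in fresh without overlap, by 1.04 (SE 0.43, adjusted p = 1) and 1.33 (SE 0.44, adjusted p = 0.108), neither called. Atp5k, subunit e, differed by 1.42 (SE 0.42, adjusted p = 0.079) in cryopreservation-2, without overlap and without a call. Summed FPKM of complex V, without TMM scaling, was 179.8 ± 10.3 in fresh, 202 ± 19.3 in the cryotop group and 193 ± 24.4 in the straw group (SD, n = 3). The order of the groups in these sums can depend on the scaling, which was not tested.

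The change was read beside the level. Of the 10 most abundant members, 2 rose in cryopreservation-2 against fresh (Cox5a and Sdhd) and 4 were positive, with a median log2 fold change of -0.04 and a range of -0.63 to 1.26. Of the other 33 tested genes, 16 were called higher and 33 were positive, with a median of 1.68 and a range of 0.05 to 3.32. Of all tested genes at or above the mean FPKM of the tenth member, 27.8, 6.20% were called higher and 6.54% lower. In these genes 34.7% were positive, with a median of -0.24. Of those below it, 2.90% were called higher, 1.80% lower and 48.7% were positive, with a median of -0.03. How far the split among members differs from that was not tested. Across the 43 genes, the mean FPKM in cryopreservation-1, whose libraries enter neither side of that contrast, went with the change at a Spearman rho of -0.67 and, on log2 levels, a Pearson r of -0.73, beside -0.09 and -0.07 over 17439 tested genes with FPKM above 0 in cryopreservation-1. This is a description over genes measured in the same libraries, which are not independent replicates. The levels are FPKM, which long gene models understate. These include the called Atp5l, Cox6c, Atp5e and Atp5j, and Atp5j2 (3.42 times) and Uqcrc1 (2.52 times), which were not called. The part of gene-model length in this relation was not tested. With the length of the longest coding transcript, rho was -0.18. The spread among the 43 genes, as the SD of log2(FPKM + 0.1), was 2.74 to 2.83 in the fresh libraries, 2.59 to 2.71 in cryopreservation-1 and 2.20 to 2.26 in cryopreservation-2. No library of cryopreservation-2 overlapped the other groups in this spread, and over all 17545 tested genes the SD was 2.79 to 2.90 with all groups overlapping. The narrower spread among members restates the changes by level given above and is not a separate observation.

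**Figure D3:**
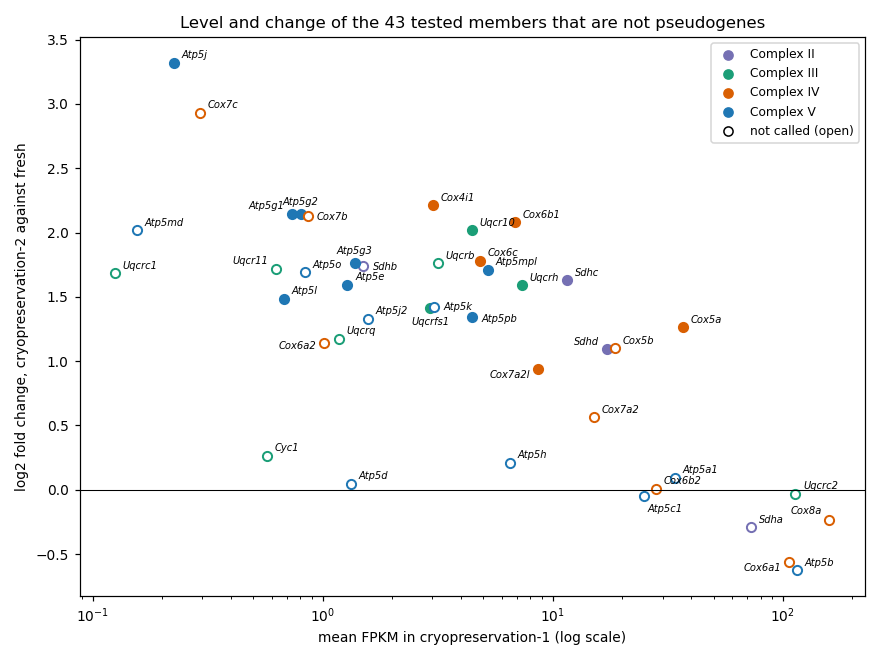
Log2 fold change in cryopreservation-2 against fresh for the 43 tested genes, over their mean FPKM in cryopreservation-1 on a log scale, coloured by complex and filled where called. The points below 0 are Atp5b, Cox6a1, Sdha, Cox8a, Atp5c1 and Uqcrc2, all among the 10 most abundant members, and Atp5j, one of the scarcest, is highest.

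Members are short genes: the median length of the longest coding transcript was 809 bases over the 43 tested genes, 745.5 over the 18 called and 955 over the 25 not called, against 2548 bases over all tested genes. With a correction for transcript length and GC content in every library, 14 members were called in cryopreservation-2 against fresh, 12 higher and 2 lower (Atp5b and Cox8a), and the median fell to 1.03. The 12 were all among the 18 above, and those no longer called were Uqcr10, Uqcrfs1, Uqcrh, Cox7a2l, Atp5e and Atp5l. The calls and the median over all genes in the corrected fit are not given here. The part of length in the change was not tested further.

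The library with the most genes at 0 counts was often low for members too. It had the lowest CPM of its group in 27 of the 48 tested members among fresh libraries (56.2%), 36 among those of cryopreservation-1 (75%) and 27 among those of cryopreservation-2 (56.2%), against 36.5%, 41.1% and 41.1% of all tested genes. It was the lowest in all 3 groups at once for 18 members (37.5%), against 12.5% of all genes, and the highest in all 3 for 0 members, against 8.98%. Those 18 included Cox8a, Cox6a1, Cox6b1, Cox6b2, Cox6c, Sdhd, Atp5g2 and Atp5mpl. Without these 3 libraries the median log2 fold change of the members in cryopreservation-2 against fresh was 1.57, and 6 were called.

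Where a subunit has more than 1 form, the balance of forms was read as a share of their summed FPKM. Subunit 6B faces the intermembrane space and helps hold the complex IV dimer together. Its testis form Cox6b2 was the main one in fresh oocytes, at 38.3, 39.4 and 15.97 FPKM against 4.57, 7.19 and 3.99 for Cox6b1. In cryopreservation-1, Cox6b2 stood at 34.8, 35.6 and 14.2 FPKM and Cox6b1 at 8.19, 8.48 and 3.82 FPKM. In cryopreservation-2 the values were 20.4, 33.9 and 51.02 FPKM for Cox6b2 and 19.1, 28.5 and 27.3 FPKM for Cox6b1. Cox6b1 was thus higher in every cryopreservation-2 library than in any other, and Cox6b2 overlapped between all groups. Cox6b1 rose by 2.08 (SE 0.40, adjusted p = 0.0195) against fresh and by 1.78 (SE 0.39, adjusted p = 0.0434) against cryopreservation-1, while Cox6b2 differed by 0.01 (SE 0.46, adjusted p = 0.996) and 0.22 (SE 0.46, adjusted p = 0.877).

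The share of Cox6b1 was 10.7, 15.4 and 19.98% in fresh, 19.04, 19.2 and 21.2% in cryopreservation-1 and 48.3, 45.7 and 34.8% in cryopreservation-2, with means of 15.4% ± 4.66, 19.8% ± 1.201 and 42.9% ± 7.16 (SD, n = 3). The mean in cryopreservation-2 was 27.6 percentage points above fresh and 23.1 above cryopreservation-1, with no overlap. An exact two-sided permutation test of 3 against 3 samples cannot go below p = 0.1, which it reached in both, and the adjusted value over 24 such tests of shares was 0.4. Their promoters, shown above, share no match to the NRF1-type or ETS-type motif.

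**Figure D4:**
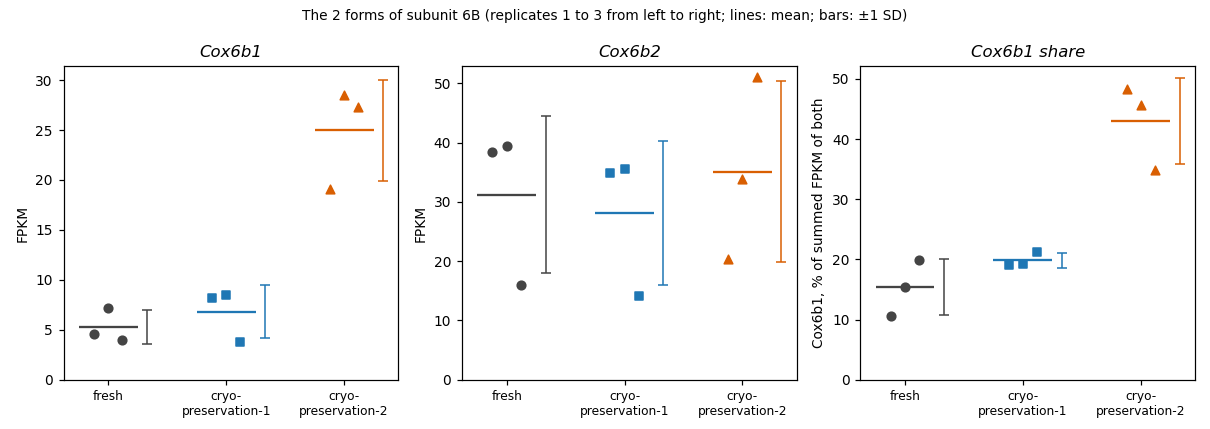
FPKM of Cox6b1 and of Cox6b2, and the share of Cox6b1 in their sum (percent), by group, with 1 point per library, the mean as a line and 1 SD as a bar. Cox6b1 is between 19.1 and 28.5 FPKM in cryopreservation-2 and at most 8.48 elsewhere, Cox6b2 overlaps throughout, and the share goes from a mean of 15.4% in fresh to 42.9%.

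Among the c-ring genes, the share of Atp5g3 was 43.3, 45.3 and 43.02% in fresh, 47.8, 46.2 and 48.04% in cryopreservation-1 and 31.4, 39.4 and 40.9% in cryopreservation-2. It was highest in cryopreservation-1 and lowest in cryopreservation-2 with no overlap in any pair, each at the smallest exact permutation p of 0.1 and an adjusted 0.4. The shares of Atp5g1 and Atp5g2 overlapped between groups. Cox6a2, the heart and muscle form of subunit 6A, made up 0.486, 0.639 and 0% of it in fresh, 0.919, 1.24 and 0.369% in cryopreservation-1 and 2.64, 1.23 and 1.31% in cryopreservation-2, so that Cox6a1 was nearly the whole. In the Cox7a group, Cox7a2 had 18.7, 19.8 and 13.8 CPM in fresh, 15.3, 23.2 and 10.7 in cryopreservation-1 and 21.3, 25.3 and 30.7 in cryopreservation-2, and the share of Cox7a2l was 27.9% ± 5.19 in fresh, 37.6% ± 9.43 in the cryotop group and 33.03% ± 3.99 in the straw group (SD, n = 3), with overlap. Cox4i2, the lung form, was listed at 0 in 8 libraries and had 11 counts in cryopreservation-2 replicate 2. The testis form Cox8c had 49 counts in fresh replicate 3 and 14 in cryopreservation-2 replicate 2, and 0 in the other 7 libraries, where a count of 0 allows up to 3 counts (0.0371 to 0.0591 CPM, counting error only).

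The 5 tested pseudogenes were not called. Cox5b-ps had 1.77, 1.899 and 3.103 CPM in fresh, 3.097, 4.63 and 2.53 in cryopreservation-1 and 6.06, 7.15 and 5.77 in cryopreservation-2 and differed on the log2 scale by 1.48 (SE 0.38, adjusted p = 0.0509) in cryopreservation-2 against fresh. Cox6c2, Atp5l2-ps and Atp5pb-ps differed by 2.32, 2.13 and 2.32 at 1.18 CPM or less, all higher without overlap, and Atp5c1-ps had overlapping groups. Such copies can share reads with their parent genes, so the split of counts between Cox5b, Cox6c, Uqcrh, Cox7c, Atp5c1, Atp5k, Atp5l or Atp5pb and their copies is uncertain. The strand setting of the counting is not given either, so a member's own reads cannot be separated from those of overlapping or antisense genes.

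Genes that build and serve the complexes were read as lists, each beside the 3.18% of all tested genes called higher and 2.2% called lower in cryopreservation-2 against fresh. Of the assembly factors of complex II, which help its subunits mature, 1 of 4 tested rose in cryopreservation-2 against fresh. This was Sdhaf4, with 14.01, 29.6 and 10.5 CPM in fresh, 22.2, 25.99 and 14.9 in cryopreservation-1 and 58.4, 65.8 and 73.8 in cryopreservation-2 and a change of 1.87 (SE 0.38, adjusted p = 0.0238) against fresh and 1.65 (SE 0.38, adjusted p = 0.0484) against cryopreservation-1. None of 6 for complex III was called by edgeR or DESeq2, with 1 at an unadjusted p under 0.05. Of 22 for complex IV, 2 rose: Surf1, needed for the haem site, by 1.92 (SE 0.36, adjusted p = 0.019), and Cox17, a copper chaperone, by 2.64 (SE 0.59, adjusted p = 0.0334). Positive changes were seen in 12 of the 22, against 47.6% of all genes, and 5 had an unadjusted p under 0.05, against 21.8%. Surf1 had 4.73, 6.54 and 6.37 CPM in fresh, 5.17, 12.2 and 5.37 in cryopreservation-1 and 23.2, 22.5 and 20.99 in cryopreservation-2, and it was also called against cryopreservation-1, by 1.55 (SE 0.36, adjusted p = 0.0495). For complex V, 1 of 5 rose. It was Atpif1, the inhibitor that stops ATP synthase from running backwards, with 2.15, 1.38 and 2.83 CPM in fresh, 2.45, 7.48 and 2.24 in cryopreservation-1 and 17.1, 16.1 and 7.28 in cryopreservation-2 and a change of 2.67 (SE 0.56, adjusted p = 0.0268).

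Among 18 electron carriers and genes of ubiquinone synthesis, 1 fell in cryopreservation-2 against fresh and none rose. Dhodh, which feeds electrons from pyrimidine synthesis into ubiquinone, fell from 140.4, 133 and 173 CPM in fresh to 67.9, 95.9 and 87.6 in cryopreservation-2, a change of -0.83 (SE 0.20, adjusted p = 0.0419). Of 16 regulators of respiratory genes, Polrmt, the mitochondrial RNA polymerase, rose by 2.297 (SE 0.58, adjusted p = 0.0482), and the others were not called. With 1 gene of 18 and 1 of 16, these counts are near the share over all genes. Among the 13 protein genes of the mitochondrial genome, some supply partners of these nuclear subunits, and the mt-Nd genes belong to complex I, outside this set. None of the 13 had an edgeR call in any comparison. At an unadjusted p under 0.05 there were 1 in cryopreservation-1 and 1 in cryopreservation-2 against fresh and 2 between the methods, near or below the 4.72%, 21.8% and 18.9% of all genes, and DESeq2 called none against fresh and 1 between the methods. Their medians were -0.52 in cryopreservation-1 and -0.41 in cryopreservation-2 against fresh, and 0.18 between the methods, where the nuclear members had 0.33, 1.48 and 1.07. Against fresh, 0 of the 13 were positive in cryopreservation-1 and 4 in cryopreservation-2. Medians of the lists in cryopreservation-2 against fresh were 0.81, 0.65, 0.26 and 0.45 for the assembly factors of complexes II to V, 0.28 for carriers and 0.25 for regulators, beside -0.06 over all genes, and how the lists differ from one another was not tested.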

How the data were processed

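Poly(A) RNA of mouse oocytes was measured in 9 libraries, 3 per group, by the treatment labels. Per the labels' protocols, RNA was selected on oligo(dT) and made into strand-marked libraries, and the submitters' processing notes name cutadapt 1.9, HISAT2 2.0.4, StringTie 1.3.4d and GRCm38. How reads were counted, with which strand setting and annotation, is not given in the sources used here. Deposited by the authors were whole read counts per gene, not normalized, and FPKM values, which a check on the table shows to be the count over a gene length and 1 factor per library.

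Counts were tested with edgeR 4.0.16 (quasi-likelihood, filterByExpr at min.count 10 and min.total.count 15, TMM) in 1 fit of all 9 libraries in R 4.3.3, checked on simulated data. This left 17545 genes, and the common biological coefficient of variation was 0.662. P-values were adjusted by Benjamini-Hochberg over all of them within each comparison. Shares of subunit forms were tested with exact permutation tests. Alternatives used DESeq2 1.42.0, limma 3.58.1 on log2(FPKM + 1) or log2(FPKM + 0.1), other scalings and filters, offsets for transcript length and GC content (GENCODE vM21), a replicate block, and leaving out libraries. No pair of libraries in a group agreed within sampling noise (chi-square per degree of freedom 85.8 to 326). A count of 0 allows up to 3 counts, which is 0.0371 to 0.0608 CPM by library, and covers counting error only, since PCR copies were not marked.

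Members were taken by symbol, and the members and gene lists were chosen with earlier results of these data known. Values in every library are given for members called in any comparison, the 3 highest of each complex by FPKM, the 2 with the lowest p of each complex and comparison, and the subunit forms. Genes of other lists are named where called.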

Additional observations from a re-analysis of the deposited data

How the results depend on the processing

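In cryopreservation-2 against fresh, where 18 members were called, other settings called 18 (DESeq2 size factors, upper-quartile scaling), 15 (no filter, or only the 2 groups compared), 21 (at least 50 counts in 3 libraries), 28 (DESeq2, 1 of them lower), 30 and 28 (limma with pseudocounts 1 and 0.1) and 14 (limma, mean FPKM of at least 5; or offsets for length and GC). Leaving out 1 library gave 5 to 16, and the library of each group with the most zeros 6. Between the methods, where 7 were called, the counts were 13 with at least 50 counts, 20 by DESeq2 (2 lower), 21 and 20 by limma, 14 with a mean FPKM of at least 5 (2 lower), 0 to 6 without 1 library, and 0 without the library of most zeros in each group. Cryopreservation-1 against fresh called 0 members under every alternative. Of the 389 refits of the 18 members called against fresh, 271 kept the call, 118 lost it and 0 changed direction. The cause of these differences was not tested. Calls over all genes under each setting are not given beside these counts, so they do not show whether members moved more than other genes.

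The labels do not say whether the replicate numbers pair the samples. Libraries of the same number correlated at -0.125 to 0.122 in their deviations from group means. Libraries of different numbers correlated at -0.0892 to 0.128. With 3 libraries a group, these values cannot decide whether samples were paired. With the number as a replicate block, 12 members were called against fresh and 2 between the methods, and with the block and the offsets for length and GC together 8 (1 lower) and 5.

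Changes near 0 turned in sign. Atp5b in cryopreservation-1 against fresh was -0.0538 with the offsets and -0.0529 with the block added. In cryopreservation-2 against fresh, Atp5c1 was 0.10 in all 3 limma fits and 0.0144 with only those groups, and Uqcrc2 was 0.11, 0.12 and 0.11, and 0.0328. Cox8a between the methods was 0.0185 without the libraries of most zeros. Leaving out 1 library gave, in cryopreservation-1 against fresh, -0.61 to 0.13 for Cox6a1, -0.32 to 0.12 for Cox8a and -0.0715 to 0.50 for Sdhc. In cryopreservation-2 against fresh it gave -0.0124 to 0.19 for Atp5a1, -0.18 to 0.18 for Atp5c1, -0.42 to 0.0628 for Cox8a and -0.13 to 0.12 for Uqcrc2. Between the methods it gave -0.69 to 0.0548 for Cox6a1 and -0.35 to 0.23 for Cox8a.

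Differences in share, in percentage points, also turned. In cryopreservation-1 against fresh, Atp5g2 was 0.585 on summed CPM and -3.90 to 2.17 without 1 library, Atp5g1 -6.22 to 0.747 and Cox8c -0.495 to 0. In cryopreservation-2 against fresh, Cox8c was -0.412 to 0.0833 and Cox4i2 0 to 0.963. Between the methods, Cox7a2l was -8.51 to 0.674, Cox4i2 0 to 0.963 and Cox8c 0 to 0.125. With 3 libraries a group, depth sets a limit for Cox4i2 and Cox8c, which rest on 1 or 2 libraries.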
